A study of Mus musculus with 12 samples.

Results

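The matrix metalloproteinases and their tissue inhibitors were followed through osteoblastic differentiation of MC3T3-E1 cells. The 9 genes were chosen by name, with earlier results of these data known. They are Mmp13, Mmp2, Mmp9, Mmp3, Mmp11, Mmp14, Timp1, Timp2 and Timp3. They are 9 of the 12817 genes named on the array, each with 1 probe, and none was dropped by a filter. MC3T3-E1 is an established mouse preosteoblast line from skull bone that lays down and mineralizes a collagen matrix in culture. It is a single line, so every culture shares its origin. All cultures received a glycerol phosphate and ascorbic acid to induce differentiation, and no culture without them was analysed here. RNA was taken on Day 2 (dividing preosteoblasts, per the series' design text), Day 5 (preosteoblasts that had stopped growing), Day 10 (osteoblasts in differentiation) and Day 28 (mature osteoblasts). Each day had 3 arrays. On every array, Cy3-labelled cDNA of the cells was set against Cy5-labelled cDNA of a purchased mouse reference RNA.

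Matrix metalloproteinases are zinc endopeptidases that cut collagens and other proteins of the extracellular matrix. Most are secreted as inactive proenzymes and are switched on by removal of a propeptide. The tissue inhibitors (TIMPs) block them by binding the active site, so the balance of enzyme and inhibitor sets how fast matrix is cleaved. In bone, collagenase 3, encoded by Mmp13, is made by osteoblasts, osteocytes and late hypertrophic chondrocytes and cleaves fibrillar collagen, while the membrane-bound enzyme Mmp14 and the inhibitor Timp2 form a complex that activates the gelatinase Mmp2. The Mmp13 promoter is a textbook target of Runx2 and of AP-1, the dimers of Fos and Jun proteins.

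RefSeq promoter sequence of build GRCm38.p6 was matched to 7 of the 9 genes, and Mmp2 and Mmp9 had no entry. Windows of 300 bases, 250 before and 50 after the start site, were searched on both strands for the AP-1 motif TGANTCA (N is any base), the Runx motifs TGTGGT and TGCGGT, and the TATA box TATAAA. The last 150 bases before the start site are shown 5′ to 3′ for 4 genes on the plus strand. Mmp13 is the gene that changed most, Mmp3 shares 2 kinds of its motifs and did not pass any test, Mmp14 holds a Runx motif alone, and Timp1 holds none. Capitals mark the motifs. The stretches shown lie at chr9:7272364-7272513 (Mmp13), chr9:7445672-7445821 (Mmp3), chr14:54431448-54431597 (Mmp14) and chrX:20870016-20870165 (Timp1).
Mmp13: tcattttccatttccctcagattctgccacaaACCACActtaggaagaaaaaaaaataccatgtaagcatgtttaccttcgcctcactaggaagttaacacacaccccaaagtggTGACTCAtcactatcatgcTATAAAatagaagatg
Mmp3: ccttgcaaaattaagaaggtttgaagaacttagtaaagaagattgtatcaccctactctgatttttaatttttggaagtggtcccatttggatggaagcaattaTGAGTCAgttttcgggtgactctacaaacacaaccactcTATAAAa
Mmp14: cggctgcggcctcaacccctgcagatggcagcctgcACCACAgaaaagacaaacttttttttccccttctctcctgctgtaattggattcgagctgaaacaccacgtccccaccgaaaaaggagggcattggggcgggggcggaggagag
Timp1: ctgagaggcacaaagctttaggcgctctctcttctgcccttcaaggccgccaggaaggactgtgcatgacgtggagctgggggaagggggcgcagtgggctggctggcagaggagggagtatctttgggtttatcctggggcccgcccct

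In the Mmp13 window the Runx motif, read on the opposite strand as ACCACA, began 118 bases before the start site, the AP-1 motif TGACTCA 35 bases before it and the TATA box 16 bases before it. The Mmp3 window held the AP-1 motif TGAGTCA 46 bases and the TATA box 7 bases before the start. The Mmp14 window held ACCACA 114 bases before the start, and the Mmp11 window TGCGGT 39 bases before it. The windows of Timp1, Timp2 and Timp3 held none of the 4 motifs. Of 32851 such windows in the table, 7.81% held the AP-1 motif, 22.4% at least 1 of the Runx motifs, 13.6% the TATA box, 1.66% both AP-1 and Runx motifs, and 0.341% all 3 kinds. These matches describe the letters of the windows and are not evidence of binding.

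All values below are log2 ratios to the reference RNA after each array was centred on its median, over 17504 rows, and a difference is the later day minus the earlier. Neither the direction of the ratio nor the base of the logarithm is stated. Positive values were taken to mean more of a transcript in the cells, which is the likely reading: 11 of 15 measured mesenchymal and osteoblast markers had a mean above 0 (median 1.63), against 1 of 11 macrophage and osteoclast markers (median -0.80) and 18 of 31 markers of the remaining lineages (median 0.09). Read the other way, every direction given here would turn. A ratio to the reference does not rank one gene against another, because the reference holds each gene at its own level. Day 5 replicate 2 and Day 10 replicate 3 stood apart, with mean correlations of 0.838 and 0.795 with the other arrays of their day, against 0.856 to 0.919 for the other 10 arrays. For some results, values without either or both of these arrays are given as well. Other results that use these arrays are given with all arrays only. Whether replicates were separate cultures is not in the labels, and p-values therefore measure the spread between these arrays, which may be technical.

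**Figure D1:**
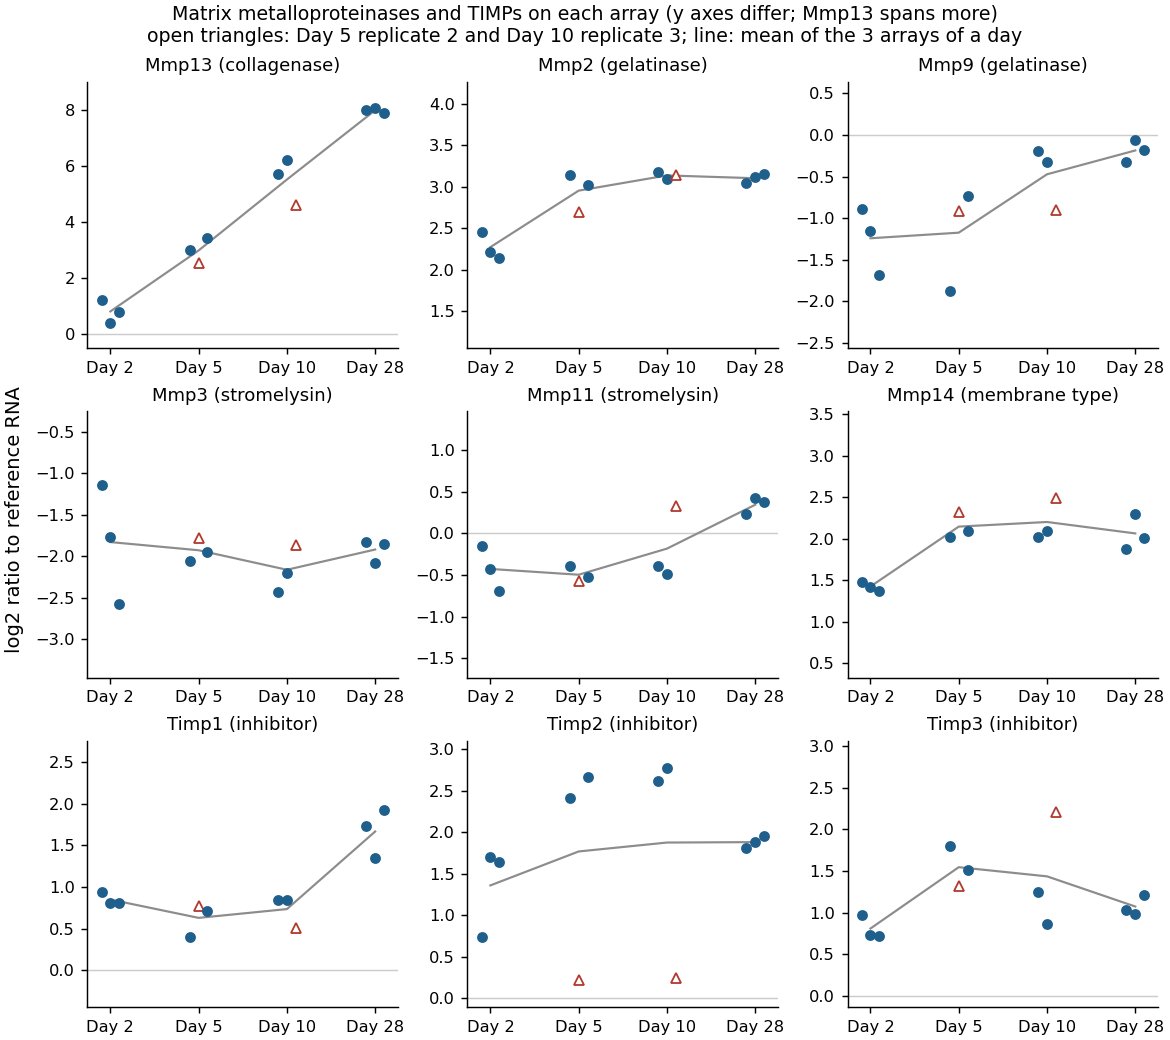
Log2 ratio to the reference RNA (y axis, with its own range for each gene) of the 9 genes on each of the 12 arrays by day (x axis). Points are single arrays, open triangles are Day 5 replicate 2 and Day 10 replicate 3, and lines join the means of 3 arrays. Mmp13 climbs at every step to between 7.89 and 8.09 on Day 28, Timp1 is high on Day 28, and Timp2 has both triangles far below the other arrays of their days.

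Mmp13, the collagenase, rose at every step and was 145-fold higher on Day 28 than on Day 2. Its log2 ratios were 1.22, 0.41 and 0.80 on Day 2, 2.99, 2.55 and 3.43 on Day 5, 5.73, 6.22 and 4.60 on Day 10, and 8.00, 8.09 and 7.89 on Day 28. No array of one day overlapped those of another, and the 3 arrays of Day 28 were the closest together. The day means were 0.81 ± 0.41, 2.99 ± 0.44, 5.52 ± 0.83 and 8.00 ± 0.10 (SD, n = 3), which are 1.76, 7.94, 45.9 and 255 times the reference. The range of these means, 7.18, was the second largest of the table (rank 2 of 17504). Without the arrays that stood apart, the means of Day 5 and Day 10 were 3.21 and 5.98, and the order of the days stayed the same.

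The successive steps of Mmp13 were of like size. The log2 difference was 2.18 in Day 5 against Day 2 (SE 0.34, 4.52-fold, limma adjusted p = 0.0175), 2.53 in Day 10 against Day 5 (5.78-fold, adjusted p = 0.0171) and 2.48 in Day 28 against Day 10 (5.56-fold, adjusted p = 0.00333). Over the whole course it was 7.18 (95% interval 6.44 to 7.93, adjusted p = 9.34e-08), and 4.71 in Day 10 against Day 2 (26.1-fold, adjusted p = 1.61e-05) and 5.01 in Day 28 against Day 5 (32.1-fold, adjusted p = 3.06e-06). The F test, which asks for any change among the 4 days, gave an adjusted p of 6.08e-07. The calls of the 2 early steps depended on single arrays. The first step missed the threshold without Day 2 replicate 2, Day 2 replicate 3, Day 5 replicate 1 or Day 5 replicate 3 (adjusted p = 0.0791 to 0.0943). The second missed it without Day 5 replicate 1, Day 5 replicate 2, Day 10 replicate 1 or Day 10 replicate 2 (0.059 to 0.09) and in a fit of its own 6 arrays (0.208). After quantile normalization, the step to Day 28 from Day 10 was smaller, at 1.42, and still passed (adjusted p = 0.0115). The difference over the whole course was then 5.95, against 7.18 in the reported fit.

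Mmp2, the gelatinase that also cleaves denatured collagen and basement membrane collagen, was higher on Day 10 and Day 28 than on Day 2. It had log2 ratios of 2.46, 2.22 and 2.14 on Day 2, 3.14, 2.69 and 3.02 on Day 5, 3.17, 3.09 and 3.15 on Day 10, and 3.04, 3.11 and 3.15 on Day 28. All 9 arrays of the later days lay above all 3 of Day 2, and those 9 overlapped from day to day. Mmp2 was 1.82-fold higher on Day 10 than on Day 2 (difference 0.86, adjusted p = 0.00602) and 1.78-fold higher on Day 28 than on Day 2 (difference 0.83, adjusted p = 0.00328). Day 5 against Day 2 gave 0.68 (SE 0.14), which missed the threshold with all arrays (adjusted p = 0.0698) and passed without the pair of arrays that stood apart (0.81, adjusted p = 0.021). Day 28 and Day 5 were not told apart (difference 0.15, 95% interval -0.16 to 0.46, adjusted p = 0.666).

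Mmp9, the second gelatinase, lay below the reference on all 12 arrays and was closest to it on Day 28. Its log2 ratios were -0.88, -1.16 and -1.68 on Day 2, -1.87, -0.92 and -0.74 on Day 5, -0.19, -0.32 and -0.91 on Day 10, and -0.32, -0.06 and -0.18 on Day 28. The Day 28 arrays stood above all arrays of Day 2 and Day 5 and overlapped those of Day 10. The difference between Day 28 and Day 2 was 1.06 (SE 0.29, 2.08-fold) and only just passed (adjusted p = 0.0478). It missed the threshold under 10 of 21 other settings, among them the loss of Day 2 replicate 2 or 3, of any Day 28 array, of Day 5 replicate 2 and of Day 10 replicate 1 or 2 (adjusted p = 0.0501 to 0.192). Day 28 against Day 5 gave 0.99 (adjusted p = 0.0706), or 1.12 (adjusted p = 0.0458) without both arrays that stood apart and 0.99 (adjusted p = 0.0423) without Day 10 replicate 3 alone. The F test gave an adjusted p of 0.0788, or 0.0302 without both arrays that stood apart. In bone Mmp9 is best known as a product of osteoclasts. Of 11 measured macrophage and osteoclast markers, 0 passed the F test or any difference between days with limma, against 5.32% of all rows in the F test. An unadjusted F test p under 0.05 was found for 1 of them, against 3274 of 17504 rows. With 11 markers, counts of 0 and 1 lie near these shares, and the source of Mmp9 was not tested. The markers' median log2 ratios from Day 2 to Day 28 were -0.58, -0.80, -1.03 and -0.78. Fewer cells of a type and less RNA per cell cannot be told apart in RNA of whole cultures.

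Mmp3, stromelysin 1, cuts proteoglycans and fibronectin and activates other proenzymes. It stayed well below the reference on all arrays, at -1.15, -1.77 and -2.57 on Day 2, -2.05, -1.78 and -1.95 on Day 5, -2.43, -2.20 and -1.86 on Day 10, and -1.83, -2.08 and -1.85 on Day 28. The arrays of Day 2 spanned more than those of all later days together. No change was detected (F test adjusted p = 0.845). The difference between Day 28 and Day 2 was -0.09, with a 95% interval of -0.68 to 0.50 (adjusted p = 0.916), and its sign turned without Day 2 replicate 1 (0.25).

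Mmp11, stromelysin 3, is switched on inside the cell by furin, unlike most of the family. Its log2 ratios were -0.16, -0.43 and -0.69 on Day 2, -0.39, -0.58 and -0.52 on Day 5, -0.39, -0.49 and 0.32 on Day 10, and 0.23, 0.43 and 0.38 on Day 28. All 3 arrays of Day 28 lay above 0, and 1 earlier array did so as well, Day 10 replicate 3. Day 28 was 1.71-fold higher than Day 2 (difference 0.77, SE 0.20, adjusted p = 0.0396) and 1.79-fold higher than Day 5 (difference 0.84, adjusted p = 0.0288). The calls were lost under 8 and 7 of 21 other settings, including without any single Day 28 array (adjusted p = 0.0665 to 0.139), without any single Day 5 array for the second (0.0623 to 0.0864), and without Day 2 replicate 2 or 3 or Day 5 replicate 1 or 3 for the first (0.0506 to 0.159). The mean of Day 10 was -0.18 ± 0.44 (SD, n = 3) with Day 10 replicate 3 and -0.44 without it. Against Day 10, Day 28 gave 0.53 (adjusted p = 0.339) with all arrays, or 0.78 (adjusted p = 0.0389) without that array. The F test then gave an adjusted p of 0.00682, against 0.0643 with all arrays.

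Mmp14, the membrane-type enzyme that activates Mmp2 and also cuts collagen at the cell surface, followed a course like that of Mmp2. It had log2 ratios of 1.48, 1.42 and 1.37 on Day 2, 2.02, 2.32 and 2.09 on Day 5, 2.02, 2.10 and 2.49 on Day 10, and 1.88, 2.30 and 2.01 on Day 28. As with Mmp2, the 9 later arrays lay above all arrays of Day 2 and overlapped one another. Mmp14 was 1.71-fold higher on Day 10 than on Day 2 (difference 0.78, adjusted p = 0.0202) and 1.56-fold higher on Day 28 than on Day 2 (difference 0.64, adjusted p = 0.0321). Day 5 against Day 2 gave 0.72 (SE 0.16, adjusted p = 0.0904), which passed without Day 10 replicate 3 (adjusted p = 0.0319) and not without both arrays that stood apart (0.63, adjusted p = 0.061). Day 28 and Day 5 differed by -0.08 (95% interval -0.42 to 0.26, adjusted p = 0.857). The call of Day 10 was lost without any single Day 2 array (adjusted p = 0.0502 to 0.0788) and in a fit of its own 6 arrays (0.0742), and that of Day 28 without any single Day 2 array, Day 28 replicate 2 or Day 28 replicate 3 (0.0633 to 0.151).

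The rises of Mmp2 and Mmp14 depend on how arrays were scaled. The highest log ratios were wider apart on later arrays: the 99th percentile was 1.86 to 1.97 on Day 2, 2.02 to 2.27 on Day 5, 2.08 to 2.46 on Day 10 and 2.49 to 2.65 on Day 28. Quantile normalization, which gives all arrays the same distribution, left Mmp2 at 0.15 (adjusted p = 0.68) and Mmp14 at 0.18 (adjusted p = 0.735) in Day 28 against Day 2. In Day 10 against Day 2 it left Mmp2 at 0.40 (adjusted p = 0.222) and Mmp14 at 0.50 (adjusted p = 0.269). Under that scaling Mmp13 differed by 5.95 between Day 28 and Day 2, less than the 7.18 of the reported fit, and still passed (adjusted p = 6.36e-09). Mmp9 differed by 1.19 (adjusted p = 0.0194) and Mmp11 by 0.81 (adjusted p = 0.0358), both past the threshold. Timp1, described below, lost its call in Day 28 against Day 2 and in Day 28 against Day 10 under that scaling.

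**Figure D2:**
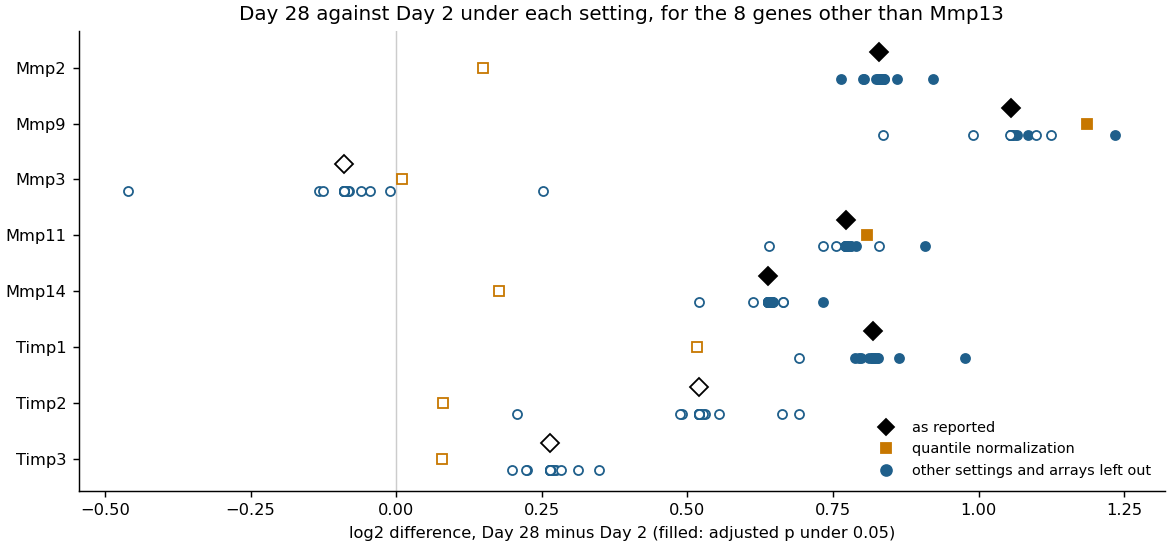
Log2 difference between Day 28 and Day 2 (x axis) for the 8 genes other than Mmp13 (rows), as reported (diamonds), after quantile normalization (squares) and under the other settings or with 1 array left out (circles). Filled symbols passed an adjusted p of 0.05. The squares of Mmp2 and Mmp14 lie at 0.15 and 0.18, far to the left of their other symbols, while those of Mmp9 and Mmp11 lie among them. The square of Timp1 is open as well.

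Timp1, an inhibitor of most secreted metalloproteinases, rose late. Its log2 ratios were 0.94, 0.80 and 0.81 on Day 2, 0.39, 0.78 and 0.72 on Day 5, 0.84, 0.85 and 0.51 on Day 10, and 1.73, 1.35 and 1.92 on Day 28. Every Day 28 array lay above every earlier one. Day 28 was 1.91-fold higher than Day 10 (difference 0.93, SE 0.17, adjusted p = 0.0191), 2.05-fold higher than Day 5 (difference 1.04, adjusted p = 0.00303) and 1.76-fold higher than Day 2 (difference 0.82, adjusted p = 0.0109). Between Day 10 and Day 2 the difference was -0.11 (95% interval -0.48 to 0.25, adjusted p = 0.834). The difference from Day 5 passed under every setting run. That from Day 10 did not pass without Day 10 replicate 1, Day 28 replicate 1 or Day 28 replicate 3 (adjusted p = 0.0515 to 0.107), after quantile normalization (0.77, adjusted p = 0.0633) or in a fit of its own 6 arrays (0.111). That from Day 2 did not pass without Day 28 replicate 3 (0.69, adjusted p = 0.0643) or after quantile normalization (0.52, adjusted p = 0.09).

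Timp2, which inhibits Mmp2 and also helps Mmp14 to activate it, differed more among arrays of a day than between days. Its log2 ratios were 0.73, 1.70 and 1.64 on Day 2, 2.41, 0.23 and 2.67 on Day 5, 2.61, 2.77 and 0.25 on Day 10, and 1.81, 1.88 and 1.95 on Day 28. The lowest 2 values came from Day 5 replicate 2 and Day 10 replicate 3, and the third lowest from Day 2 replicate 1. With all arrays the F test found no change (adjusted p = 0.93), and the difference was 0.41 in Day 5 against Day 2 (adjusted p = 0.901), 0.52 in Day 10 against Day 2 (95% interval -0.89 to 1.92, adjusted p = 0.795) and 0.52 in Day 28 against Day 2 (-0.88 to 1.92, adjusted p = 0.753). Without the pair of arrays that stood apart, the means of Day 5 and Day 10 were 2.54 and 2.69, Day 5 against Day 2 gave 1.18 (adjusted p = 0.0442), Day 10 against Day 2 gave 1.33 (adjusted p = 0.00977), and the F test gave an adjusted p of 0.0112. What set the low values on those arrays was not tested.

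Timp3, the inhibitor that binds to the matrix itself and also blocks several ADAM proteases, had its highest mean on Day 5. Its log2 ratios were 0.97, 0.73 and 0.72 on Day 2, 1.80, 1.32 and 1.51 on Day 5, 1.24, 0.86 and 2.21 on Day 10, and 1.04, 0.98 and 1.21 on Day 28. The Day 5 arrays lay above all arrays of Day 2 and Day 28, while Day 10 replicate 3 was the highest of the 12. Day 5 against Day 2 gave 0.74 (SE 0.26, adjusted p = 0.338) with all arrays, or 0.85 (adjusted p = 0.0346) without the pair that stood apart. The difference between Day 28 and Day 2 was 0.26 (95% interval -0.30 to 0.83, adjusted p = 0.672). The F test gave an adjusted p of 0.276 with all arrays and 0.0298 without that pair, when the mean of Day 10 was 1.05.

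**Figure D3:**
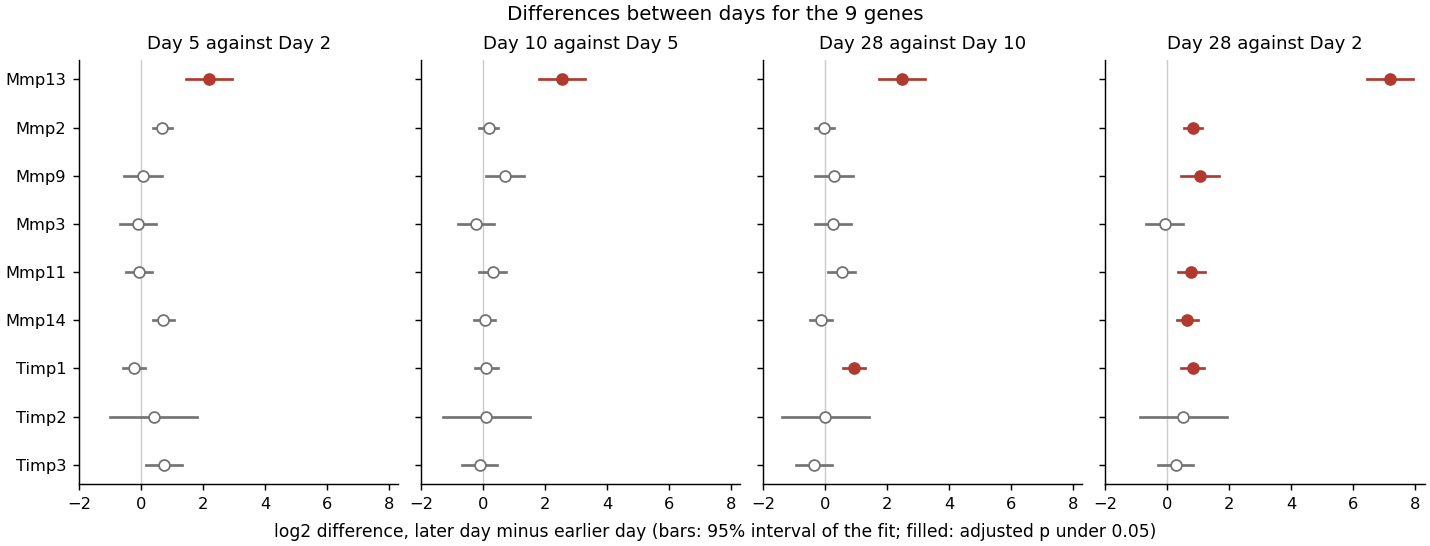
Log2 difference, later day minus earlier day (x axis), of the 9 genes (rows) in 4 comparisons (panels). Bars are 95% intervals of the fit, and filled points have an adjusted p under 0.05. Mmp13 is filled in all 4 panels, at 2.18, 2.53, 2.48 and 7.18, and Timp1 in the panels of Day 28, at 0.93 and 0.82. Mmp2, Mmp9, Mmp11 and Mmp14 are filled in the panel of Day 28 against Day 2 only.

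Counted over the comparisons, the calls of the 9 genes lay mostly at Day 28, as did those of all rows. In Day 28 against Day 2, 6 of the 9 were higher (Mmp13, Mmp2, Mmp9, Mmp11, Mmp14 and Timp1) and 0 lower, against 5.69% of all rows, of which 3.68% were higher and 2.01% lower. Because the 9 genes were chosen with earlier results of these data known, this contrast is a description and carries no test. At an unadjusted p under 0.05, 0 were lower as well, against 1571 of 17504 rows. With 9 genes, a count of 0 lower lies near the share of all rows at either threshold. The median difference of the 9 was 0.77, against -0.01 over all rows, and 8 of the 9 were above 0. After quantile normalization 3 of these 6 calls held, and 2 did without Day 28 replicate 3, 3 without Day 2 replicate 2, Day 2 replicate 3 or Day 28 replicate 2, and 4 without Day 28 replicate 1. In Day 28 against Day 5, 3 passed (Mmp13, Mmp11 and Timp1; 4.71% of all rows). In Day 28 against Day 10, 2 passed (Mmp13 and Timp1; 0.84%), and in Day 10 against Day 2, 3 passed (Mmp13, Mmp2 and Mmp14; 2.59%).

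Earlier steps held few calls, among the 9 genes as over all rows. Mmp13 was the single gene of the 9 past the threshold in Day 5 against Day 2 (0.337% of all rows) and in Day 10 against Day 5 (0.149%). At an unadjusted p under 0.05 there were 4 and 2 of the 9, against 1773 and 1573 of 17504 rows. The F test called 4 of the 9 (Mmp13, Mmp2, Mmp14 and Timp1), against 5.32% of all rows. Without both arrays that stood apart it called 8, all but Mmp3, and it called 2 without Day 28 replicate 3 and 7 without Day 10 replicate 3. The share of all rows called without these arrays is not given, so these counts have no background to be set against. The median range of the day means was 0.84 for the 9 genes and 0.32 over all rows.

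For each gene past the F test, the 3 named genes with the most similar course were found by Pearson r of the log2 ratio over the 12 arrays, among 849 named rows past that test. These arrays share 1 reference RNA and fall into 4 days, so r is a description of likeness and carries no test. Closest to Mmp13 were Htra1, a secreted serine protease that cleaves matrix proteins (r = 0.993), Fxyd1, phospholemman, a regulator of the sodium pump (r = 0.988), and Nt5e, the surface 5′-nucleotidase CD73 (r = 0.987). Htra1 had day means of -0.11, 0.77, 1.52 and 2.47 from Day 2 to Day 28, Fxyd1 of 0.14, 1.18, 2.44 and 3.31, and Nt5e of -0.80, 0.07, 1.09 and 1.76. The means of all 3 were higher on each later day, as for Mmp13, over a narrower range.

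Closest to Mmp2 were Itpr2, a calcium channel of the endoplasmic reticulum (r = 0.955), Slc29a1, a nucleoside transporter (r = 0.945), and Col4a2, a chain of basement membrane collagen (r = 0.942). Closest to Mmp14 were F3, tissue factor (r = 0.939), LTO1 (r = 0.925) and Ddb2, a DNA damage recognition protein (r = 0.913). F3 had means of 0.69 on Day 2, 1.57 on Day 5 and 1.66 on Day 10. Closest to Timp1 were Car9, a carbonic anhydrase (r = 0.959), Klhl30 (r = 0.930) and Gbe1, the glycogen branching enzyme (r = 0.927). Car9 had means of -2.01 on Day 2, -2.83 on Day 5 and 0.47 on Day 28, so that its lowest mean fell on Day 5 and its highest on Day 28, as for Timp1.

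**Figure D4:**
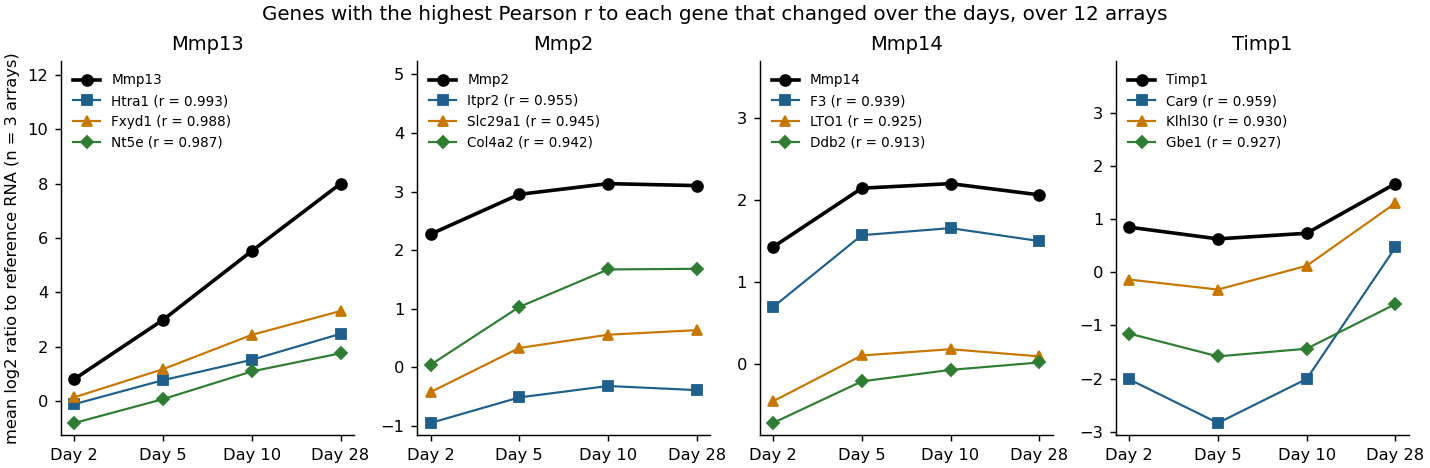
Mean log2 ratio to the reference RNA (y axis, n = 3 arrays) by day (x axis) for Mmp13, Mmp2, Mmp14 and Timp1 (black) and the 3 genes closest to each by Pearson r over 12 arrays (colours). The genes near Mmp13 have a higher mean on each later day, those near Mmp2 and Mmp14 have their lowest mean on Day 2, and those near Timp1 their highest on Day 28.

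In the rest of the family, 1 gene passed in any comparison, a share near that of all rows in Day 28 against Day 2 (5.69%). Of 14 measured among 19 other matrix metalloproteinases and inhibitors, Mmp19, a secreted enzyme of broad specificity, was higher on Day 28 than on Day 2 (0.79, adjusted p = 0.0419) and than on Day 5 (0.92, adjusted p = 0.0214). The other 13 passed in no comparison, and the list's median in Day 28 against Day 2 was -0.03, against -0.01 over all rows. The Mmp19 call in Day 28 against Day 2 was lost without any single array of Day 2 or Day 28 or without Day 5 replicate 2.

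Proteases and cofactors of the ADAM, ADAMTS and astacin group went both ways. Of 17 measured, Pcolce, which enhances cleavage of the procollagen propeptide, was higher on Day 28 than on Day 2 (0.64, adjusted p = 0.0422). Its relative Pcolce2 was lower (-2.28, adjusted p = 0.00598), as was the aggrecanase Adamts5 (-0.79, adjusted p = 0.0188). Adam12, a metalloprotease of mesenchymal cells, was higher on Day 28 than on Day 10 (1.31, adjusted p = 0.0191) and than on Day 5 (1.19, adjusted p = 0.0105). The median of the list was -0.01 in Day 28 against Day 2, as over all rows, of which 3.68% were higher and 2.01% lower. The count of higher genes, 1, was 0 without any single array of Day 2 or Day 28 or without Day 10 replicate 1, and 2 without Day 5 replicate 2, Day 10 replicate 2 or Day 10 replicate 3. That of lower genes, 2, was 1 without Day 2 replicate 1 or Day 28 replicate 2.

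Among 8 measured genes of the plasminogen system and of proprotein activation, a route by which secreted metalloproteinases are switched on, 2 were higher on Day 28 than on Day 2 and 0 lower, against 3.68% and 2.01% of all rows. Plat, tissue plasminogen activator, differed by 1.68 (adjusted p = 2.83e-04) and had day means of 0.02, 0.29, 1.13 and 1.70 from Day 2 to Day 28. Furin, the convertase that activates Mmp11 and Mmp14, differed by 0.70 (adjusted p = 0.0188). The list's median was 0.15. The count was 1 without Day 2 replicate 2 or 3, without Day 28 replicate 1 or 3, and after quantile normalization.

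The cathepsins and other matrix proteases outside the metalloproteinase families had the most calls of these lists. The lists too were chosen with earlier results of these data known, so their counts are descriptions. All 9 listed genes were measured, and in Day 28 against Day 2, 6 were higher and 0 lower, against 3.68% and 2.01% of all rows. The median was 1.18, against -0.01 over all rows. Ctsk, cathepsin K, a collagenolytic enzyme best known from osteoclasts, differed by 2.63 (adjusted p = 0.00286). Ctsh, a lysosomal aminopeptidase, differed by 1.56 (adjusted p = 6.45e-04), Ctsl by 1.18 (adjusted p = 0.00107), Ctsd by 1.17 (adjusted p = 0.00155) and Htra1 by 2.58 (adjusted p = 5.08e-06). Cst3, cystatin C, is an inhibitor of cysteine cathepsins and rose with them, by 2.69 (adjusted p = 6.24e-06). The count was 6 or 7 under every setting run. Ctss, a further member, is also among the macrophage and osteoclast markers. Of these, 0 of 11 passed the threshold, which is near the share of all rows in the F test (5.32%).

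Genes for the proteins that these enzymes cut changed in both directions. Of 14 measured substrates, Col4a1 (1.13, adjusted p = 0.00658), Col4a2 (1.64, adjusted p = 9.53e-05) and Sparc, a collagen-binding glycoprotein (1.30, adjusted p = 0.00646), were higher on Day 28 than on Day 2. Vcan, the proteoglycan versican, was lower (-1.42, adjusted p = 0.0113). Over all rows, 3.68% were higher and 2.01% lower. Dcn, the small proteoglycan decorin, was higher on Day 10 than on Day 2 (1.17, adjusted p = 0.0113) and then fell by 1.83 in Day 28 against Day 10 (adjusted p = 0.00106). The list's median was 0.20 in Day 28 against Day 2, and 2 were higher and 3 lower after quantile normalization. The count of higher genes was 5 without Day 10 replicate 3. That of lower genes was then 2, and 0 without Day 2 replicate 2, Day 2 replicate 3 or Day 28 replicate 2.

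Of 16 measured genes of AP-1, Runx and signals known to act on collagenase, 4 were higher on Day 28 than on Day 2 and 0 lower, against 3.68% and 2.01% of all rows. Runx2 and Il1b, also on this list, had no row under their names and were not measured. The 4 are named here. They were the AP-1 members Fosl2 (1.35, adjusted p = 0.00332) and Jund (0.71, adjusted p = 0.0408), the parathyroid hormone receptor Pth1r (1.84, adjusted p = 0.0103) and the growth factor Tgfb1 (1.79, adjusted p = 9.22e-04). Fosl2 and Tgfb1 had their rise between Day 10 and Day 28, by 1.30 (adjusted p = 0.0184) and 1.42 (adjusted p = 0.0197). Another AP-1 member, Fosl1, was lower on Day 10 than on Day 2 (-1.21, adjusted p = 0.0276). The list's median was 0.10.

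At the cell surface, Bsg, the inducer of metalloproteinases known as basigin or EMMPRIN, was higher on Day 28 than on Day 2 (0.88, adjusted p = 0.0191). Cd44, a hyaluronan receptor that docks Mmp9 and Mmp14, was lower (-0.79, adjusted p = 0.00793). Over all rows, 3.68% were higher and 2.01% lower in that comparison. The other 6 of the 8 measured partners passed in no comparison, and the count of higher genes was 0 without Day 2 replicate 2 or 3 or without Day 28 replicate 1 or 3. Among 8 measured genes of osteoblast stage, 2 passed, against 5.69% of all rows. Runx2, Spp1, Bglap and Bglap2, also on that list, had no row under their names. Dmp1, a matrix protein of late osteoblasts and osteocytes, was higher on Day 28 than on Day 2 (2.52, adjusted p = 9.64e-05), as was Pth1r, which both lists hold. The median was 1.09 with 8 of 8 above 0. Without both arrays that stood apart, or without Day 10 replicate 3 alone, 4 passed, and the share of all rows in those fits is not given.

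**Figure D5:**
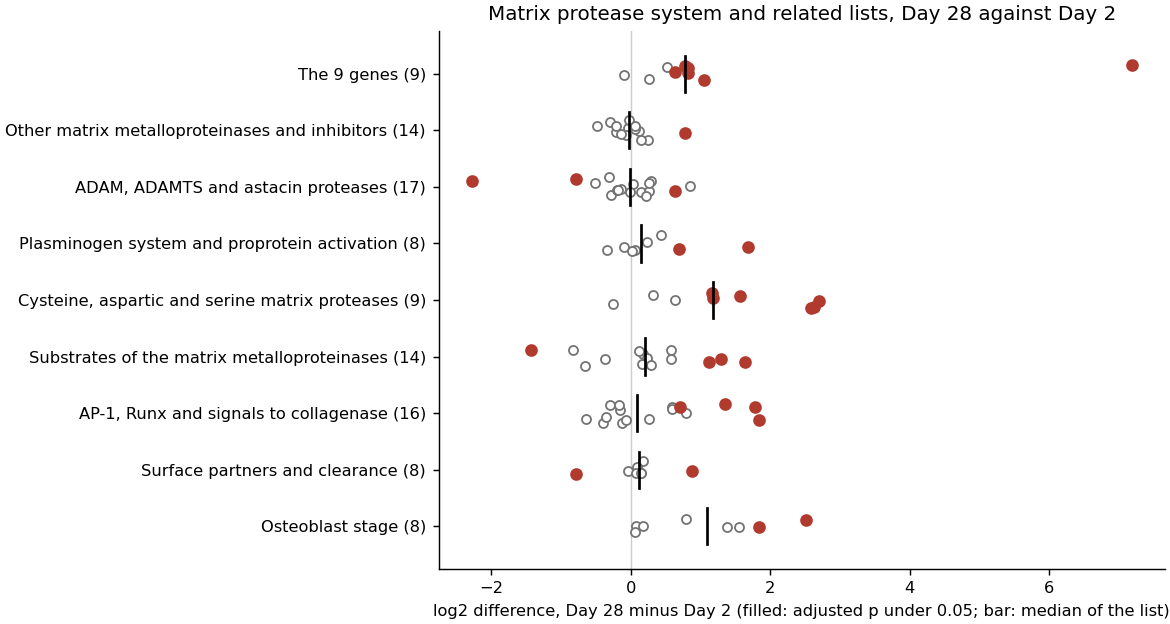
Log2 difference between Day 28 and Day 2 (x axis) of each measured gene, by list (rows, with the number measured). Filled points have an adjusted p under 0.05, and bars are medians. Of the 9 genes, 6 are filled and Mmp13 stands far right at 7.18, and the row of cysteine, aspartic and serine proteases has 6 of 9 filled with a median of 1.18.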

How the data were processed

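Whole-cell RNA of MC3T3-E1 cells was hybridised on 12 two-colour oligonucleotide arrays, 3 for each of 4 days. The table deposited by the authors holds a log ratio per spot and array, taken here as log2. R 2.13.0 is named in the submitters' processing notes. How the background was corrected, arrays normalized and weak spots treated is not given in the sources used here. Of 17664 rows, 14010 had 1 gene, 13 several and 3641 none, and 13908 of those with 1 gene matched RefSeq (GRCm38.p6). For 10 genes printed 17 times, the 170 spots were averaged, which left 17504 rows. Column medians lay within 0.0142 of 0. No spot intensities were used, so weak and bright spots could not be told apart, and the number of arrays limits the precision.

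Samples were grouped by the labelled day. Arrays were centred on their medians, and limma 3.58.1 in R 4.3.3 (lmFit, eBayes) fitted 1 mean per day to all 12 arrays, with 8 residual and 5.23 prior degrees of freedom. All 6 differences between days and an F test were adjusted by Benjamini-Hochberg over all rows, with a threshold of 0.05. Shares of all rows given beside counts come from this fit of all 12 arrays, and none are given for the other settings. The procedure was tested on simulated data. The alternatives were no centring, quantile normalization, the replicate number as a block, array weights, a fit of the compared days alone, rows with 1 gene, probes averaged per gene, a robust prior, both arrays that stood apart left out, and each array left out in turn.

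The 9 genes and the lists were chosen with earlier results of these data known. All 9 are named, and of each list up to 6 genes past the threshold, smallest F test p first. A list gene with several probes is represented by the probe with the lowest number. For likeness, named rows past the F test were ranked by r. The labels' replicate numbers did not pair the arrays, so no block was used. No protein sequence was used here.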

Additional observations from a re-analysis of the deposited data

How the results depend on the processing

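Over 54 differences of the 9 genes between days and 21 other settings (9 alternatives and 12 arrays left out in turn), 0 of the 16 differences past the threshold turned sign, 5 kept their call throughout and 11 lost it under at least 1 setting. The 5 were Mmp13 in Day 28 against Day 2, Day 5 and Day 10 and in Day 10 against Day 2, and Timp1 in Day 28 against Day 5. Of the 38 not past it, 20 turned sign and 7 passed under at least 1 setting. The number of the 9 genes called changed as follows, and the cause was not tested. Shares of all rows under these settings are not given, so the counts are not set against a background. The F test called 8, not 4, without both arrays that stood apart, and 2 to 7 with 1 array left out. Day 5 against Day 2 called 2 with array weights, 4 without both arrays that stood apart and 0 to 3 with 1 array left out, against 1. Day 10 against Day 5 called 0, not 1, in a fit of its own 6 arrays, and 0 to 1 with 1 array left out. Day 28 against Day 10 called 1, not 2, after quantile normalization, with the replicate block and in a fit of its own 6 arrays, each time without Timp1 (adjusted p = 0.0506 with the block), and 1 to 3 with 1 array left out. Day 28 against Day 2 called 3, not 6, after quantile normalization, and 2 to 6 with 1 array left out. Day 10 against Day 2 called 1, not 3, after quantile normalization, and 2 to 3 with 1 array left out. Day 28 against Day 5 called 2 to 4 under all settings. Signs turned for Mmp2 in Day 28 against Day 5 after quantile normalization (-0.29). They turned for Mmp3 in Day 28 against Day 2 after quantile normalization (0.00904) and with 1 array left out (-0.46 to 0.25). For Mmp14 in Day 28 against Day 5 they did so without both arrays that stood apart (0.0062) and with 1 array left out (-0.20 to 0.012), and for Timp2 in Day 5 against Day 2 with 1 array left out (-0.041 to 1.18). None of these 4 had passed the threshold.

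Replicates carry the numbers 1 to 3 within each day. Of 18 pairs of arrays with the same number, 2 had deviations from their day means that correlated over 0.1 (range -0.271 to 0.205), and 2 of 12 arrays were closest to their own number, so the numbers do not pair the arrays. With the replicate block, 4 of the 9 genes passed in Day 28 against Day 2 and 1 in Day 28 against Day 10. With 3 arrays a day, the 95% interval of a difference reached 0.31 to 1.40 on either side of its value.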
